A study of Mus musculus with 24 samples.

Results

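The 40 mouse genes described here encode cathepsins and legumain, other acid hydrolases and their helpers, lysosomal membrane proteins, and the subunits of the vacuolar proton pump (V-ATPase). They were chosen by name from a list of symbols by function, a list drawn up with earlier results of these data known, and all 40 were matched to Ensembl identifiers among the 52636 genes of the deposited tables. All 40 also passed the filter on low counts that left 14681 genes for testing. By role they comprised 10 cathepsins or legumain, 6 glycosidases or lipases, 4 sterol transfer or activator proteins, 6 membrane proteins or channels, 5 subunits of the V0 sector, 7 subunits of the V1 sector and 2 accessory subunits. RNA was sequenced from mouse bone marrow-derived macrophages (BMDMs), macrophages grown from bone marrow with the growth factor M-CSF, in 24 libraries that formed 8 groups of 3. There were 4 genotypes, written in the labels as TBK1-WT ∆control, TBK1-WT ∆IKKe, TBK1-cKD ∆control and TBK1-cKD ∆IKKe. The series record spells out ∆IKKe as a knockout of IKKe and cKD as a conditional knockout of TBK1, the IkB kinase-related kinases encoded by Ikbke and Tbk1. Each genotype was sampled untreated and 8 h into treatment with R837, also called imiquimod, a synthetic agonist of Toll-like receptor 7. The 3 replicates of a group came from separate mice, per the labels. One protocol text, shared by every record, names C57BL/6N wild-type animals. For the deleted exons, the Cre driver of the conditional allele, and the age and sex of the mice, nothing is given in the sources used here.

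Lysosomes digest what macrophages take up. The V-ATPase acidifies them: its cytosolic V1 sector splits ATP and turns a rotor that drives protons through the membrane-embedded V0 sector. Acid activates the cathepsins, which are proteases, and the hydrolases that cut sugars and lipids, while sterols leave through NPC2 and NPC1. Toll-like receptor 7 itself signals from endolysosomes after proteases of this group have trimmed it. Many lysosomal genes carry a CLEAR element, a DNA sequence bound by the transcription factors TFEB, TFE3 and MITF, whose middle is the E-box core CACGTG.

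The libraries held 19727746 to 41323219 gene counts, with a median of about 31400000. Levels below are normalised CPM (counts scaled by library size after TMM normalisation), and changes are log2 values with the standard error (SE) of the edgeR fit. A gene is said to have risen, fallen or been higher or lower by the test when its adjusted p was under 0.05. Macrophage markers were present in all libraries, with 8 of 8 listed genes tested and a summed level of 14800 to 22500 CPM untreated and 23700 to 31200 CPM after R837. The red cell marker Hbb-bs was at 0 counts in every library. Untreated Tbk1 levels were 73.4 to 76.3 CPM in TBK1-cKD ∆control and 87.8 to 90.7 CPM in TBK1-cKD ∆IKKe, against 100 to 104 CPM in TBK1-WT ∆control. After R837, Tbk1 stood at 93.4 to 107 CPM in TBK1-cKD ∆control. In TBK1-cKD ∆IKKe it was at 115 to 136 CPM, which overlapped the 118 to 148 CPM of TBK1-WT ∆control. Untreated Ikbke levels were 34.5 to 35.9 CPM in TBK1-WT ∆IKKe, against 59 to 59.9 CPM in TBK1-WT ∆control. In the libraries labelled TBK1-cKD ∆IKKe, untreated Ikbke stood at 76.9 to 81.3 CPM and was thus not lower than in TBK1-WT ∆control, so this group is called by its label throughout. The libraries also fell into 2 sets by their nuclear RNAs, taken as the mean log2 CPM of Malat1, Neat1 and Xist. It was 8.94 to 9.46 in 14 libraries, which were all 12 untreated ones and 2 treated ones: replicate 1 of TBK1-WT ∆control and, in the group labelled TBK1-cKD ∆IKKe, replicate 3. It was 5.25 to 5.64 in the other 10, all treated with R837. After R837, Ikbke stood at 70.5 to 79.3 CPM in TBK1-WT ∆IKKe, at 239 to 248 CPM in TBK1-cKD ∆control, and at 77.7, 82.7 and 259 CPM in replicates 1, 2 and 3 of the labelled TBK1-cKD ∆IKKe group. TBK1-WT ∆control had 406, 220 and 233 CPM. The library high in nuclear RNA was thus the one with the most Ikbke in both groups, and replicates 1 and 2 of the labelled group were below every treated library of the 2 ∆control genotypes.

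The lysosomal genes spanned a wide range of levels. Compared per kilobase, as deposited RPKM averaged over 24 libraries, the aspartic protease Ctsd stood highest at 3770 RPKM. The cysteine protease Ctsb followed at 3160 RPKM, the sphingolipid activator precursor Psap at 2630, the growth factor and lysosomal protein precursor Grn at 1320 and the macrophage membrane glycoprotein Cd68 at 1260. At the other end stood the cysteine proteases Ctso at 18.9 RPKM and Ctsf at 7.9 RPKM. Last was Atp6v0c, which encodes the proton-carrying ring subunit of V0, at 0.532 RPKM and 11 to 34 counts per library. Its processed copy Atp6v0c-ps2 was listed at 8.12 RPKM. Reads shared by near-identical copies may not be counted for either, so the level of Atp6v0c is uncertain. The 40 genes together took 6.91% to 7.62% of all gene counts in untreated libraries. After R837 they took 4.96% to 5.85% in the 10 libraries low in nuclear RNA, and 4.05% and 4.3% in the other 2. In bulk RNA, fewer cells of a type and less RNA per cell cannot be told apart.

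**Figure D1:**
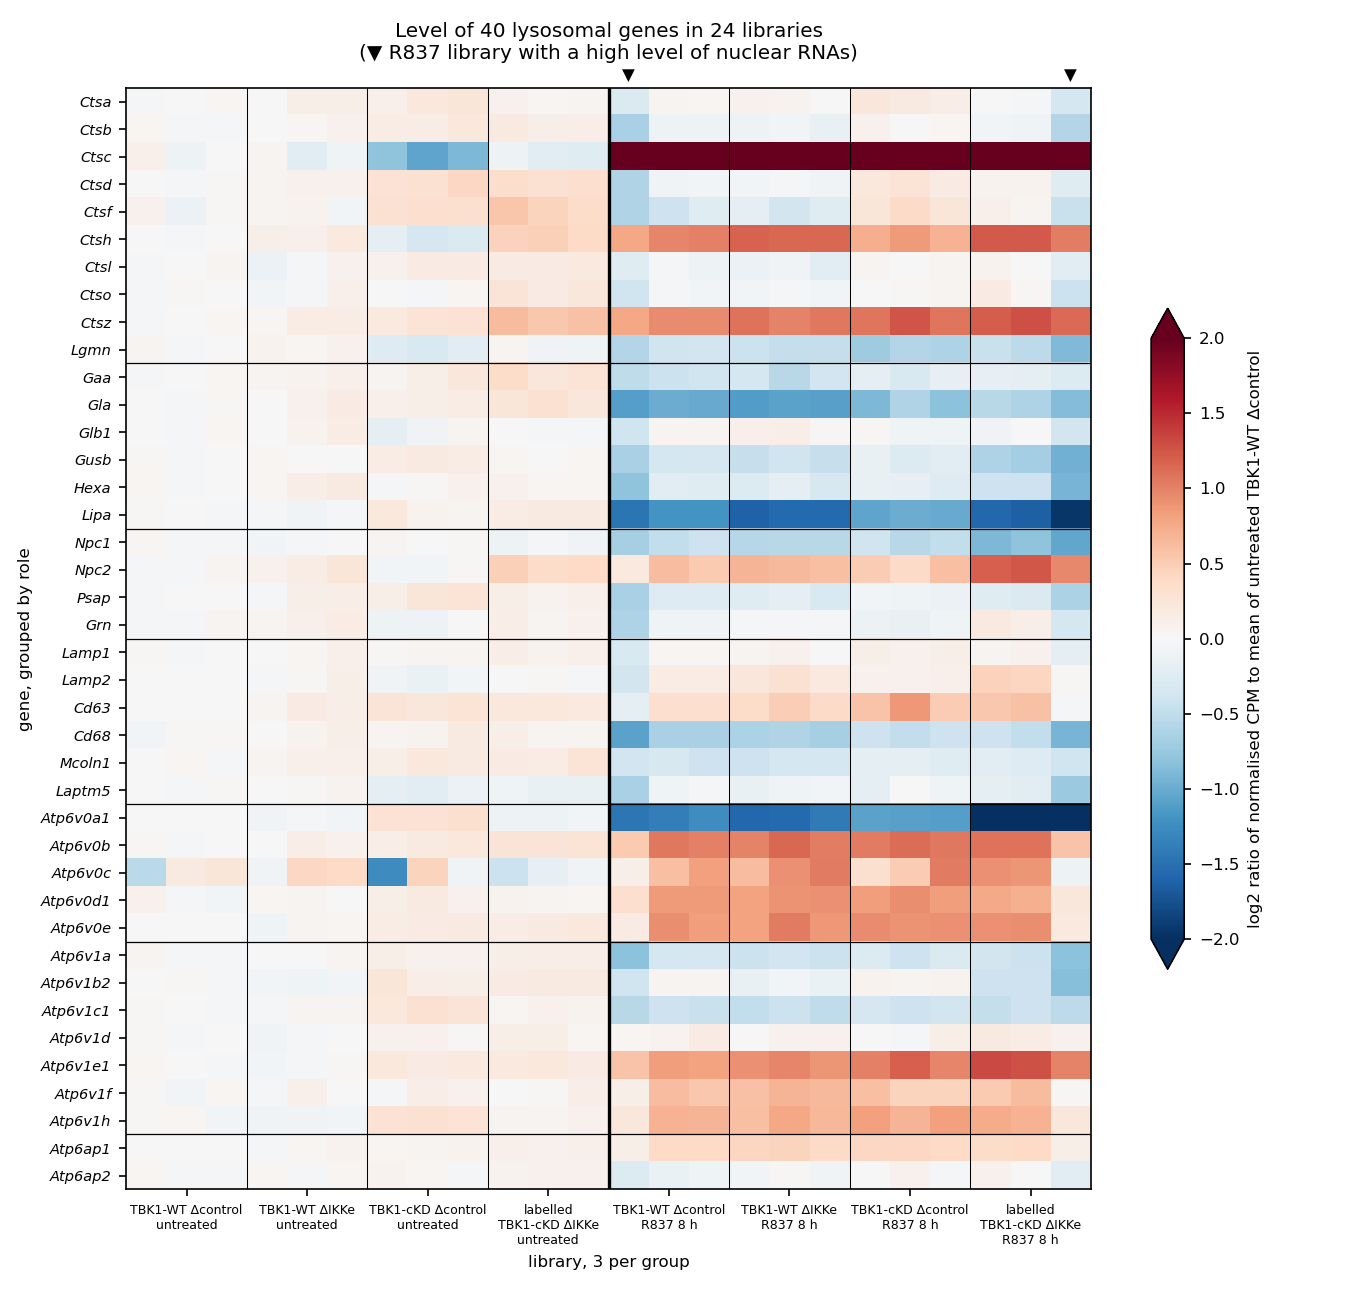
Each cell is the log2 ratio of normalised CPM in 1 library to the mean of untreated TBK1-WT ∆control, for 40 genes (rows, grouped by role) in 24 libraries (columns, 3 per group). The colour scale ends at -2 and 2, beyond which Ctsc and Atp6v0a1 lie in some libraries, and triangles mark the 2 R837 libraries high in nuclear RNA.

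Promoter sequences show where the E-box core sits in these genes. RefSeq windows of the GRCm38.p6 assembly, from 250 bases before to 50 after each start site, were at hand for 34 of the 40 genes. The core CACGTG, searched on both strands (it reads the same on both), stood in the windows of 14 of the 34, or 41.2%, against 8.09% of 27025 genes with a window and 11.8% of 10116 tested genes with one. With a T before the core or an A after it, TCACGTG on either strand, 12 of 34 held it (35.3%), against 4.29% of all and 6.97% of tested genes. The 8-base form TCACGTGA, which overlaps the shorter ones, was in 7 of 34 (20.6%), against 1.12% and 2.2%. Of 22 occurrences of the core, 20 began upstream of the start and 14 of those within 100 bases of it. The stretches below are examples from 6 of the 14 genes, upstream of the start, chosen to show several cores close together (Lamp1, Gla, Atp6v0b) and the 8-base form (Gla, Atp6v1a, Mcoln1, Ctsd). They run 5′ to 3′ on the gene's strand, with the core in capitals.
Lamp1: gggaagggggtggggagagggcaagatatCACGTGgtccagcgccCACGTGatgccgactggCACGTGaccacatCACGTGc
Gla: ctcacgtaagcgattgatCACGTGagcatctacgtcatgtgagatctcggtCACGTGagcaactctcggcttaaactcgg
Atp6v0b: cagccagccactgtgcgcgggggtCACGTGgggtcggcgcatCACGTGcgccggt
Atp6v1a: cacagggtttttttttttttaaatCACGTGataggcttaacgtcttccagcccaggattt
Mcoln1: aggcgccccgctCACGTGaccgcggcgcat
Ctsd: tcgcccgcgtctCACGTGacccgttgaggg
The stretch of Lamp1, a heavily glycosylated lysosomal membrane protein, is chr8:13159071-13159152 on the plus strand and holds 4 cores. That of Gla, alpha-galactosidase A, is chrX:134601171-134601250 on the minus strand, with 2 cores. The stretch of Atp6v0b, a V0 ring subunit, is chr4:117887335-117887389 on the minus strand and has 2. Atp6v1a, the ATP-splitting A subunit of V1, has 1 core in chr16:44139355-44139414 on the minus strand. None of these 4 stretches overlapped an exon of its own gene in the GENCODE annotation, and exons of other genes were not checked. The 30-base sites of Mcoln1, a lysosomal calcium channel, at chr8:3500462-3500491 (plus strand) and of Ctsd at chr7:142387908-142387937 (minus strand) lie in annotated exons. Of the 14 holders 3 rose and 6 fell with R837 in TBK1-WT ∆control (median change -0.18), and of the other 20 with a window 6 rose and 7 fell (median -0.08). Of all tested genes 30.6% rose and 32% fell. The response of all genes that hold the core was not followed, and a difference by motif was not tested.

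**Figure D2:**
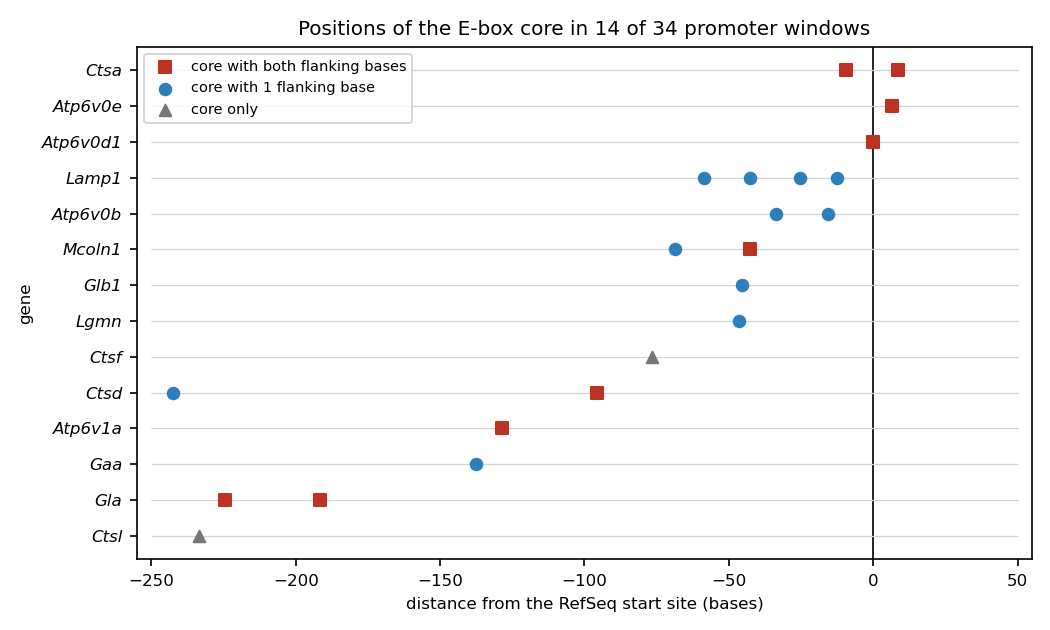
Points give the position of each E-box core relative to the RefSeq start site (x axis, bases; the vertical line is the start) in the 14 genes that hold one (y axis). Squares mark cores with both flanking bases, circles cores with 1 and triangles bare cores; 20 of 22 begin upstream of the start.

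In TBK1-WT ∆control, 8 h of R837 raised 11 and lowered 15 of the 40 lysosomal genes. These counts stand beside 30.6% of all 14681 tested genes that rose and 32% that fell, so the number called is near that of genes at large. By role, 3 of 5 V0 and 3 of 7 V1 subunits rose, as did 3 of 10 cathepsins, while 5 of 6 glycosidases or lipases fell and none of them rose. The median change was -0.14 over the 40 genes and -0.04 over all tested genes. In 33 of the 40 genes the 3 R837 libraries lay wholly above or wholly below the 3 untreated ones. The share of all tested genes that separated this way was not counted, so this number does not set the 40 genes apart.

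Among the cathepsins, Ctsc, the dipeptidyl peptidase that activates serine proteases of immune cells, rose most. It is ENSMUSG00000030560 at chr7:88278085-88310888 (GRCm38, plus strand). Its 3 untreated libraries of TBK1-WT ∆control had 308, 267 and 287 CPM, and the R837 libraries had 1600, 2360 and 2400 CPM. The groups were far apart, and the lowest R837 value was that of replicate 1, which is high in nuclear RNA. The log2 change was 2.88 (SE 0.14, adjusted p = 1.13e-13), or 7.36-fold. Ctsh, an aminopeptidase, rose from 115, 113 and 115 CPM to 196, 227 and 230 CPM, a log2 change of 0.93 (SE 0.07, adjusted p = 1.14e-10). Ctsz, a carboxypeptidase, rose from 774, 787 and 820 CPM to 1360, 1530 and 1530 CPM, or by 0.89 (SE 0.06). Legumain (Lgmn), which cuts after asparagine and processes other lysosomal proteases, fell by 0.45 (SE 0.08, adjusted p = 5.8e-05), from 1560, 1460 and 1490 CPM to 1000, 1140 and 1150 CPM. Ctsf fell by 0.42 (SE 0.11), from 15.2 to 17.4 CPM untreated to 10.8 to 13.8 CPM. The abundant Ctsb and Ctsd had changes of -0.26 and -0.22 with adjusted p of 0.0733 and 0.0668, and Ctsa, Ctsl and Ctso ranged from -0.15 to -0.06 without passing the test.

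Of the 6 enzymes that degrade sugars and lipids, 5 were lower after R837 in TBK1-WT ∆control. Lipa, the acid lipase that frees cholesterol and fatty acids from lipoproteins, had 1900, 1860 and 1820 CPM untreated and 678, 813 and 811 CPM treated. All treated values were under all untreated ones, a log2 change of -1.28 (SE 0.08, adjusted p = 1.11e-11), or 2.42-fold lower. Lipa is ENSMUSG00000024781 at chr19:34492318-34527474 on the minus strand. Gla, which removes terminal galactose from glycolipids, went from 202, 199 and 205 CPM to 93.9, 101 and 100 CPM, a change of -1.04 (SE 0.07). Beta-glucuronidase (Gusb) had 972, 940 and 945 CPM untreated and 608, 744 and 755 CPM treated, and the glycogen-degrading Gaa had 127, 131 and 135 CPM and then 92, 97.7 and 99.4 CPM. Both fell by 0.44 with no overlap. Hexa, the alpha subunit of beta-hexosaminidase, fell by 0.39 (SE 0.12, adjusted p = 0.00936), but without R837 replicate 1 of this group its adjusted p was 0.169. Beta-galactosidase (Glb1) had a change of -0.08 (adjusted p = 0.496). Of the pair that exports cholesterol, the soluble carrier Npc2 rose and the membrane transporter Npc1 fell. Npc2 had 1040, 1040 and 1100 CPM untreated and 1210, 1630 and 1530 CPM treated, a change of 0.46 (SE 0.09, adjusted p = 0.000166). Npc1 had 355, 343 and 343 CPM untreated and 220, 246 and 260 CPM treated, a change of -0.52 (SE 0.06, adjusted p = 2.67e-07). Psap went from 8240, 8410 and 8330 CPM to 5320, 6980 and 7000 CPM, and fell by 0.37 (SE 0.1, adjusted p = 0.00227; 0.0628 without R837 replicate 1 of TBK1-WT ∆control), and Grn had a change of -0.23 (adjusted p = 0.0956).

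Of the membrane proteins, Cd68 fell by 0.78 (SE 0.11, adjusted p = 1.95e-06), from 1960, 2070 and 2060 CPM to 968, 1290 and 1300 CPM. Mcoln1 fell by 0.37 (SE 0.05), from 57.5, 59.1 and 56.3 CPM to 44.3, 46 and 43.3 CPM, and its groups did not overlap. The major membrane glycoproteins Lamp1 and Lamp2 had changes of -0.07 and -0.01, the tetraspanin Cd63 of 0.18 and Laptm5, a membrane protein of leukocyte lysosomes, of -0.23, none of them past the test. In Cd63 the treated libraries lay on both sides of the untreated 251, 251 and 252 CPM, with 220 CPM in replicate 1 and 318 and 316 CPM in the other 2.

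Within the V-ATPase the subunits moved in both directions. Of the V0 genes, the ring subunit Atp6v0b rose by 0.88 (SE 0.12), the stalk subunit Atp6v0d1 by 0.69 (SE 0.12) and the small subunit Atp6v0e by 0.68 (SE 0.16). Atp6v0b had 235, 224 and 231 CPM untreated and 329, 480 and 460 CPM treated. Atp6v0d1 had 183, 168 and 166 CPM and then 216, 312 and 309 CPM, and Atp6v0e 156, 157 and 157 CPM and then 175, 298 and 281 CPM. In all 3 the treated replicate 1 was the lowest of its group yet above every untreated library. Atp6v0a1, the large membrane subunit through which protons pass, instead fell from 479, 480 and 482 CPM to 177, 185 and 203 CPM. Its 6 libraries separated widely, and the log2 change of -1.35 (SE 0.05, adjusted p = 5.04e-15), or 2.55-fold lower, was the most negative of the 40 genes. Atp6v0a1 is ENSMUSG00000019302 at chr11:101009452-101063719 on the plus strand. In V1, the stator subunits Atp6v1e1 and Atp6v1h and the small subunit Atp6v1f rose by 0.74, 0.54 and 0.44. The untreated levels of Atp6v1e1 were 171, 168 and 162 CPM and the treated ones 247, 297 and 291 CPM. The ATP-splitting Atp6v1a fell by 0.49 (SE 0.1), from 932, 882 and 869 CPM to 506, 698 and 705 CPM. Atp6v1c1, which links V1 to V0, fell by 0.46 (SE 0.05), from 252, 246 and 243 CPM to 169, 186 and 182 CPM. The partner of Atp6v1a in ATP binding, Atp6v1b2, and the rotor subunit Atp6v1d had changes of -0.08 and 0.09 that did not pass the test. Of the accessory proteins, Atp6ap1 rose by 0.31 (SE 0.07), from 576 to 583 CPM untreated to 631 to 762 CPM. Atp6ap2 fell by 0.16 (SE 0.06, adjusted p = 0.0353), a call kept without R837 replicate 3 and lost in the other 5 fits that left out 1 of these libraries, with an adjusted p of up to 0.501 without R837 replicate 1. Atp6v0c had a change of 0.53 (SE 0.35, adjusted p = 0.191) on few counts.

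**Figure D3:**
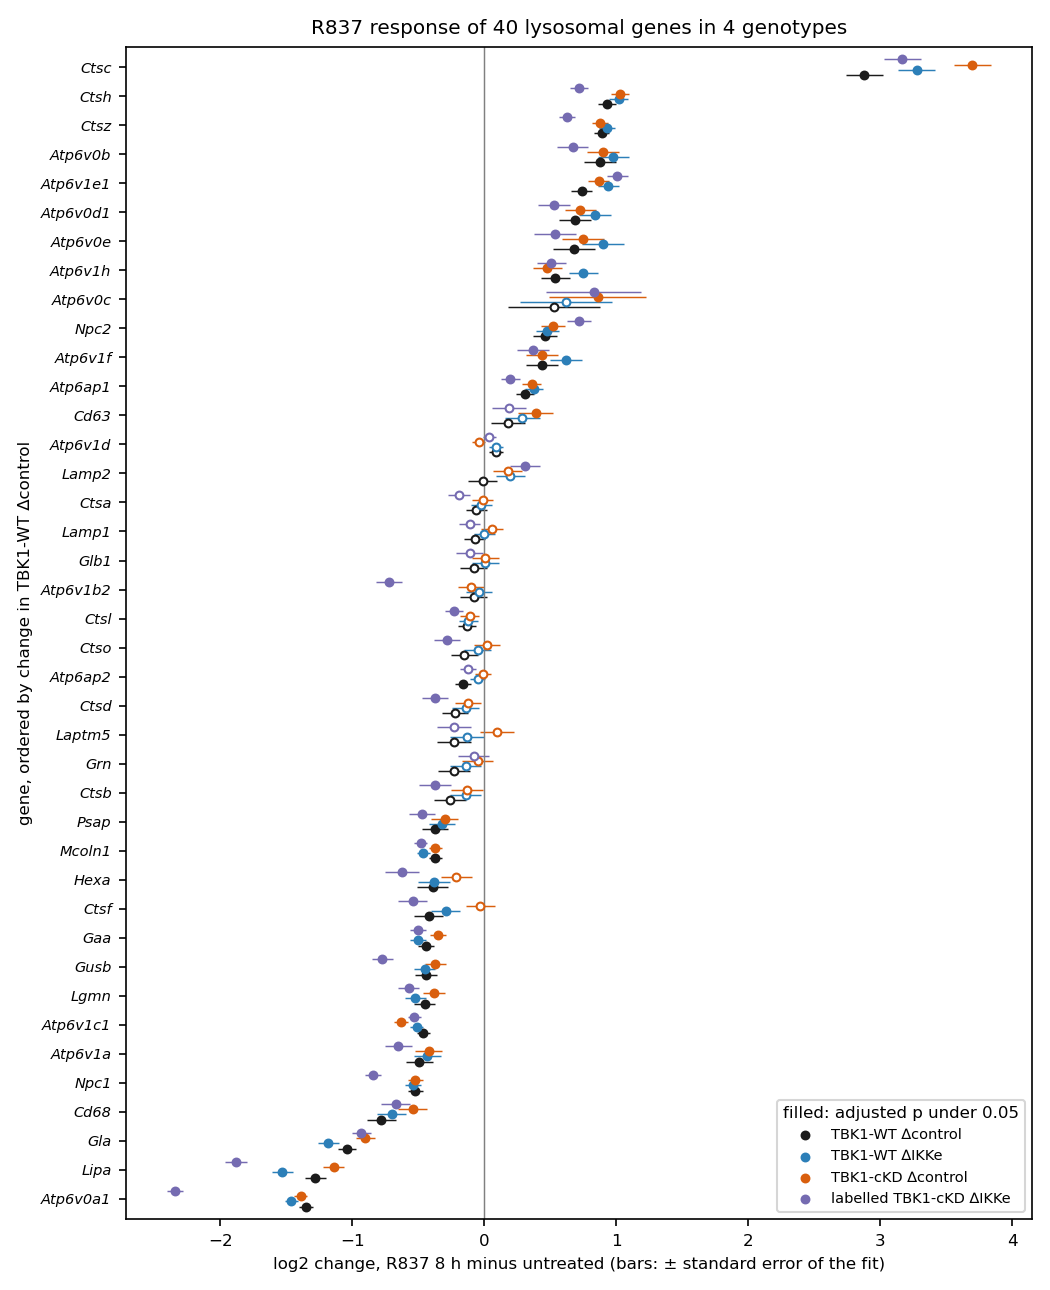
Points are log2 changes after 8 h of R837 against untreated cells (x axis) for 40 genes (y axis, ordered by TBK1-WT ∆control) in 4 genotypes, with bars of 1 standard error of the fit; filled points have an adjusted p under 0.05. Ctsc stands apart at 2.88 to 3.7, and the labelled TBK1-cKD ∆IKKe points of Lipa and Atp6v0a1 lie furthest to the left.

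The nuclear RNA level of a library went along with the level of the lysosomal genes within the R837 groups. In TBK1-WT ∆control, R837 replicate 1 lay below the mean of its 2 group mates for all 40 genes, with a median log2 difference of -0.37, and below both mates for 39. In the group labelled TBK1-cKD ∆IKKe, replicate 3 lay below both mates for all 40, with a median of -0.36. Over all tested genes the same medians were 0 and -0.01, and 49.7% and 50.9% of them lay below the mean of the 2 mates. The share of all tested genes below both mates was not counted. Over the 40 genes, the 2 mates differed from each other by a median of 0.02 and 0.04. Atp6v0e differed by -0.73 and -0.72 in the 2 groups and Laptm5 by -0.61 and -0.55, whereas Mcoln1 differed by -0.01 in TBK1-WT ∆control and Atp6v1d by -0.08 and -0.07. Summed over the 40 genes, normalised CPM was 60600 to 69600 untreated, 58100 to 64600 in the 10 R837 libraries low in nuclear RNA, and 43500 and 47100 in the other 2.

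The response was therefore fitted again in other ways, first with a term for the nuclear RNA level and then using only the 14 libraries of high level, where 1 R837 library of TBK1-WT ∆control met 3 untreated ones. In both, 10 of the 40 genes rose and 27 fell in TBK1-WT ∆control, with a median of -0.38 against -0.01 over all genes. Of all genes 29.8% rose and 30.1% fell in the fit with the term, and 30.6% each way in the other. Without the 2 R837 libraries of high level, a fit added after the data were seen, 16 rose and 14 fell (35.7% and 36.9% of all genes), with a median of 0 against -0.02. In these fits 24 genes kept their call and direction. The 10 that rose in all were Ctsc, Ctsh, Ctsz, Npc2, Atp6v0b, Atp6v0d1, Atp6v0e, Atp6v1e1, Atp6v1h and Atp6ap1. The 14 that fell in all were Ctsf, Lgmn, Gaa, Gla, Gusb, Hexa, Lipa, Npc1, Psap, Cd68, Mcoln1, Atp6v0a1, Atp6v1a and Atp6v1c1. Another 4, Lamp1, Lamp2, Cd63 and Atp6v1b2, were called in one direction in some fits and in the other direction elsewhere. Lamp2, for example, had a change of -0.34 (adjusted p = 5.77e-07) with the term and 0.2 (adjusted p = 0.000192) without the 2 libraries. Sizes moved as well: with the term Ctsc rose by 2.51, Atp6v0e by 0.16 and Atp6v0d1 by 0.33, and Atp6v1f, at 0.09 (adjusted p = 0.279), was no longer called. Atp6v0a1 and Lipa moved less, to -1.44 and -1.48. Treatment and nuclear RNA level cannot be told apart beyond these 2 libraries, since TBK1-WT ∆IKKe and TBK1-cKD ∆control have no R837 library of high level.

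**Figure D4:**
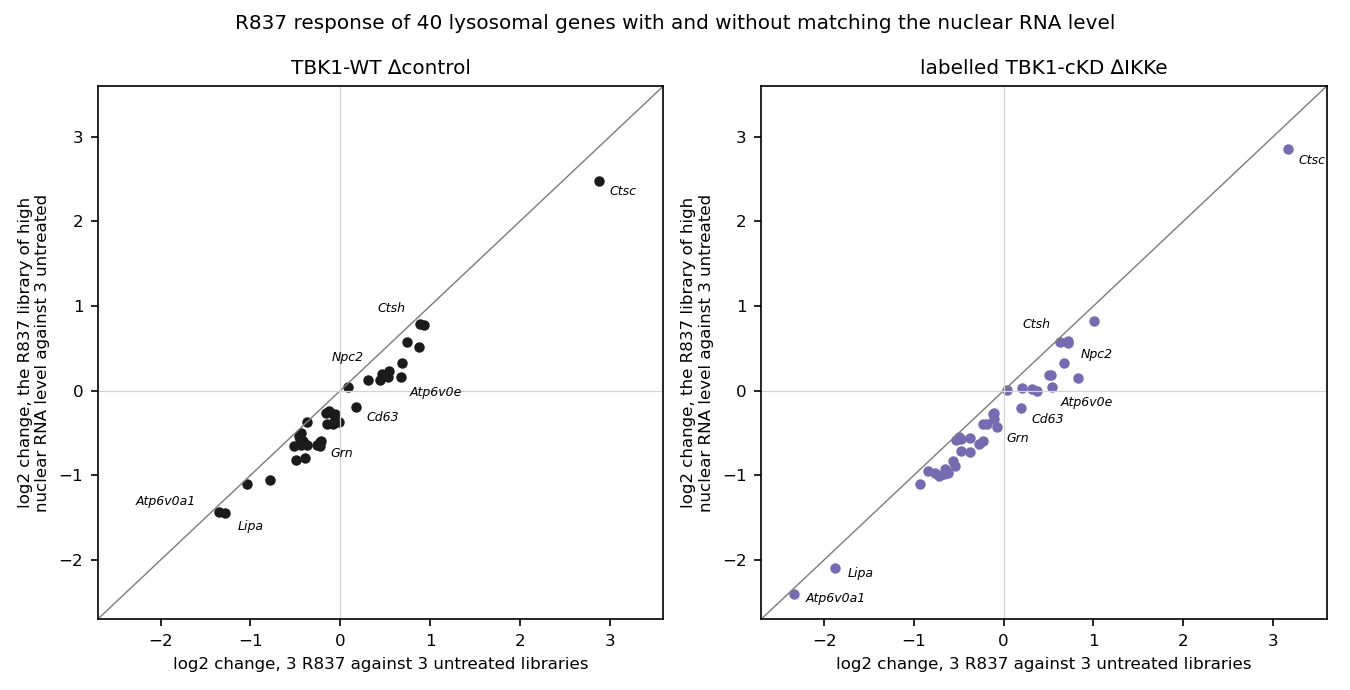
Each point is 1 of 40 genes; the x axis is the log2 change after R837 from 3 treated and 3 untreated libraries, and the y axis the change from the treated library of high nuclear RNA level (1 of those 3) against the 3 untreated libraries. The line marks equal values: Ctsc, Lipa and Atp6v0a1 lie far from 0 on both axes, and Cd63 is above 0 on one and under 0 on the other.

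The other genotypes shared most of these calls. In TBK1-WT ∆IKKe 11 rose and 14 fell (32.4% and 37.8% of all tested genes), in TBK1-cKD ∆control 13 rose and 12 fell (31.6% and 37.5%), and in the group labelled TBK1-cKD ∆IKKe 13 rose and 19 fell (31.6% and 34.8%). With upper-quartile scaling, which moved the median of all genes in this last response from -0.07 to -0.18, its counts were 9 and 23. These 4 responses use different libraries. Their medians over the 40 genes were -0.05, -0.02 and -0.21 in these 3 genotypes, against -0.07, -0.08 and -0.07 over all genes. Rises in all 4 were called for 11 genes: Ctsc, Ctsh, Ctsz, Npc2, Atp6v0b, Atp6v0d1, Atp6v0e, Atp6v1e1, Atp6v1f, Atp6v1h and Atp6ap1. Falls in all 4 were called for 12: Lgmn, Gaa, Gla, Gusb, Lipa, Npc1, Psap, Cd68, Mcoln1, Atp6v0a1, Atp6v1a and Atp6v1c1. In this main fit no gene was called in opposite directions, and 6 (Ctsa, Glb1, Grn, Lamp1, Laptm5 and Atp6v1d) were called in none. The share of all tested genes called alike in all 4 responses was not counted, so these numbers do not set the 40 genes apart. Over the main fit and those that treat the nuclear RNA level differently, Grn and Cd63 were called in both directions in the labelled TBK1-cKD ∆IKKe group. In TBK1-WT ∆IKKe the call of Ctsf, a fall, was lost without R837 replicate 2 or 3 or untreated replicate 1 or 2. The log2 change of Ctsc was 3.28 in TBK1-WT ∆IKKe, 3.7 in TBK1-cKD ∆control and 3.17 in the labelled TBK1-cKD ∆IKKe group (SE 0.14 in each). Treated Ctsc libraries had 2550 to 2700, 1960 to 2010 and 1810 to 2560 CPM in that order. Genes called only beyond TBK1-WT ∆control were few. In the labelled TBK1-cKD ∆IKKe group Ctsb, Ctsd, Ctsl, Ctso and Atp6v1b2 fell and Lamp2 rose, and in TBK1-cKD ∆control Cd63 rose; Atp6v0c passed in both at adjusted p of 0.0496 and 0.0453. Leaving out replicate 3, the library high in nuclear RNA, ended the calls of Ctsb and Ctso in the labelled group, and leaving out R837 replicate 1 or 2 ended those of Lamp2, Atp6v0c, Atp6v1f and Atp6ap1. Ctsl, at -0.09 (adjusted p = 0.151), was not called there without the 2 R837 libraries of high level. Ctso was also lost there without untreated replicate 1 or 3, and Atp6v0c without any of the 3 untreated ones. In TBK1-cKD ∆control Cd63 was not called without R837 replicate 2, nor Atp6v0c without R837 replicate 3 or untreated replicate 1 or 3. A fit that also held the nuclear RNA level gave 9 rises and 27 falls in TBK1-WT ∆IKKe (27.7% and 26.5% of all genes). It gave 7 and 26 in TBK1-cKD ∆control (26.3% each way) and 8 and 26 in the labelled TBK1-cKD ∆IKKe group (32.1% and 33.6%). In TBK1-WT ∆IKKe and TBK1-cKD ∆control every R837 library was low in nuclear RNA and every untreated one high. The adjustment applied to them was therefore set by R837 libraries of the other 2 genotypes. For TBK1-WT ∆IKKe and TBK1-cKD ∆control that fit cannot separate treatment from level, so calls ended there do not decide between them. Of the 11 shared rises, that fit ended Atp6v1f in each genotype and Npc2 in TBK1-WT ∆IKKe (0.16, adjusted p = 0.0841). It ended Atp6v0e (0.03, adjusted p = 0.747), Atp6v1h (0.01, adjusted p = 0.86) and Atp6ap1 (0.09, adjusted p = 0.109) in TBK1-cKD ∆control. In the labelled group it ended Atp6v0e (0.02, adjusted p = 0.755) and Atp6ap1 (0.01, adjusted p = 0.803). The 12 shared falls kept their calls in it.

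Without treatment, no lysosomal gene was called in TBK1-WT ∆IKKe. All untreated comparisons use the same 3 libraries of TBK1-WT ∆control. None of the 40 passed between TBK1-WT ∆IKKe and TBK1-WT ∆control by edgeR, nor did any of all 14681 genes (0% each way), while 1 of the 40 and 422 of all genes had an unadjusted p under 0.05 and DESeq2 called 1 gene in all, not one of the 40. The median difference was 0.04 over the 40 genes and 0 over all genes. In TBK1-cKD ∆control 3 genes were higher and 2 lower than in TBK1-WT ∆control (2.4% and 2.65% of all genes), with a median difference of 0.12 over the 40 and 0 over all genes. Ctsc was lower, with 164, 139 and 154 CPM against 308, 267 and 287 CPM, a log2 difference of -0.92 (SE 0.13, adjusted p = 0.000127), or 1.89-fold. The groups were well separated, and no library left out ended the call. Atp6v0a1 was higher, with 588, 585 and 600 CPM against 479, 480 and 482 CPM, a difference of 0.3 (SE 0.05, adjusted p = 0.00114), and Atp6v1c1 by 0.26 (SE 0.05). Ctsz was higher by 0.25 and Ctsh lower by 0.26, with adjusted p of 0.0209 and 0.0219. Both of these calls were lost without untreated replicate 1 or 2 of TBK1-WT ∆control or replicate 2 or 3 of TBK1-cKD ∆control, and that of Ctsh also without TBK1-WT ∆control replicate 3. In the 14 libraries of high nuclear RNA level alone, the differences of Ctsz and Ctsh were 0.25 and -0.26. The count of 5 became 22 when the 2 groups were fitted alone and 23 with nuclear RNA level as a term (19 higher and 4 lower, against 7.31% and 6.6% of all genes). Over all genes the number called rose too in both fits, as given in the closing section on processing. Osteoclast markers summed to 850 to 870 CPM in these cells against 629 to 663 CPM in TBK1-WT ∆control, with Calcr at 0 in both, and their part in these differences was not tested.

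In untreated cells labelled TBK1-cKD ∆IKKe, 8 of the 40 genes were higher than in TBK1-WT ∆control and none lower (8.52% and 5.1% of all genes), with medians of 0.1 and 0. The largest difference was that of Ctsz, with 1230, 1150 and 1190 CPM against 774, 787 and 820 CPM, or 0.58 (SE 0.06, adjusted p = 8.75e-07). Ctsf had 24.1, 22.4 and 21.2 CPM against 17.4, 15.2 and 16.7 CPM (difference 0.46, SE 0.11), and Ctsh 158, 160 and 151 CPM against 115, 113 and 115 CPM (0.45, SE 0.07). Npc2 had 1480, 1370 and 1400 CPM against 1040, 1040 and 1100 CPM (0.42, SE 0.09). In each of these 4 genes all 3 libraries of the labelled group were above all 3 of the other. Gaa was higher by 0.3, Gla by 0.26, Mcoln1 by 0.19 and Ctsd by 0.33. The call of Ctsd was lost whichever of the 6 libraries was left out, that of Gla without TBK1-WT ∆control replicate 1 or 2 or labelled replicate 2, and that of Mcoln1 without TBK1-WT ∆control replicate 1 or 3 or labelled replicate 3. Each of these fits still held the 2 R837 libraries of high nuclear RNA level, which enter the shared estimate of the spread. Ctsd had 10600, 10300 and 10500 CPM against 8230, 8220 and 8480 CPM. In the 14 libraries of high level alone, the differences of Ctsd, Gla and Mcoln1 were 0.34, 0.27 and 0.2. Upper-quartile scaling called 5. The fit with the nuclear RNA level called 22, of which 20 were higher and 2 lower (14.8% and 10.8% of all genes). In the same cells the summed level of the osteoclast marker list, with 8 of its 10 genes tested, was 1680 to 1700 CPM against 629 to 663 CPM in TBK1-WT ∆control, with Calcr at 0 in both groups, and that of the macrophage list 21200 to 22500 CPM against 14800 to 16200 CPM. The part of these marker shifts in the differences of the lysosomal genes was not tested.

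**Figure D5:**
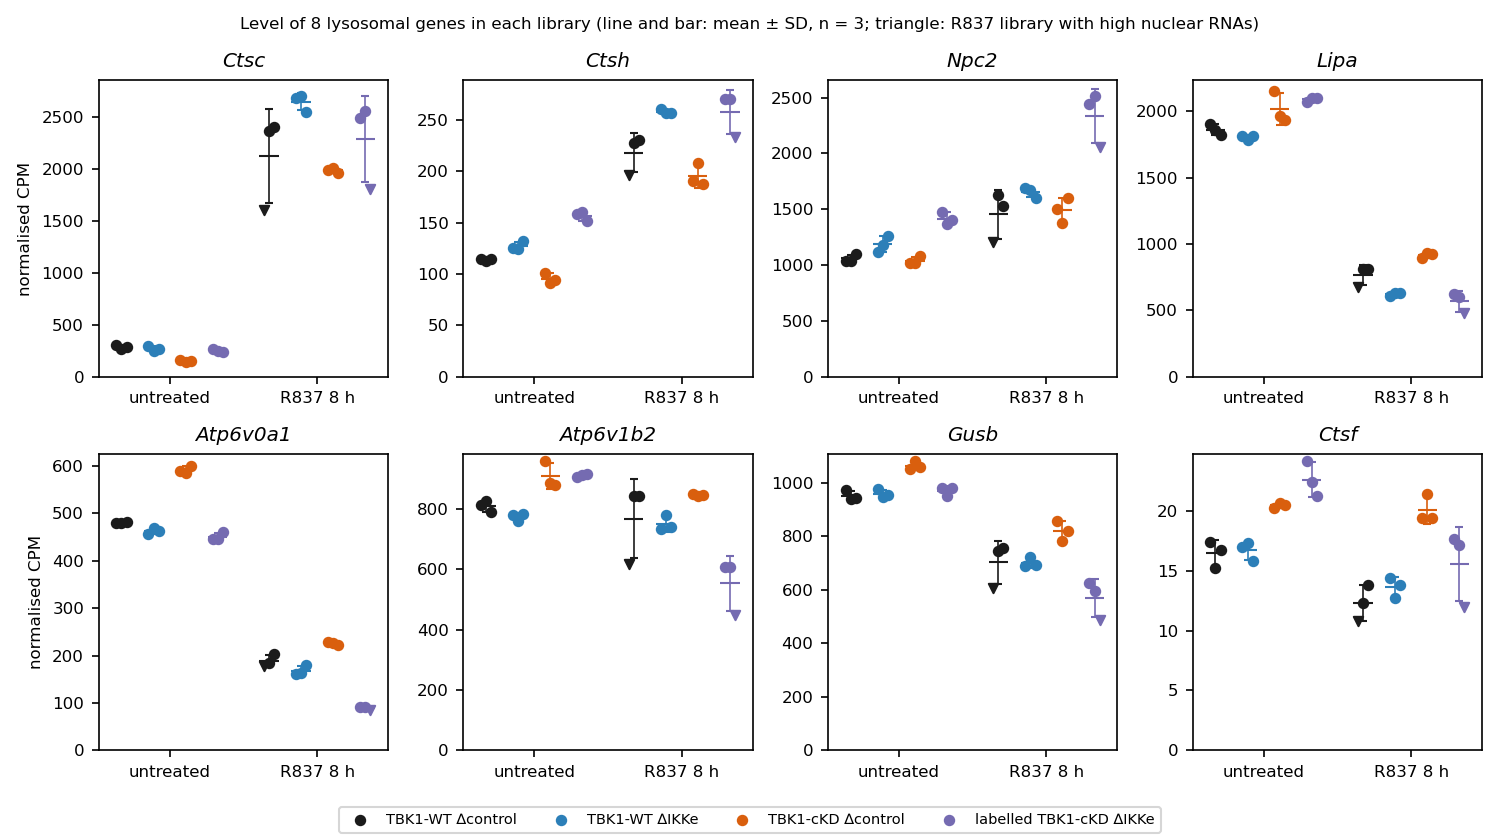
Points are the normalised CPM of single libraries (y axis, from 0) for 8 genes in 4 genotypes, untreated and after 8 h of R837; lines and bars are the mean and SD of 3, and triangles mark the R837 libraries high in nuclear RNA. Treated Atp6v0a1 in the labelled TBK1-cKD ∆IKKe group, at 84.2 to 92.2 CPM, is under the values of all other groups.

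After R837, the genotypes were each set against the same 3 libraries of TBK1-WT ∆control, 1 of them high in nuclear RNA. No lysosomal gene differed in TBK1-WT ∆IKKe by edgeR, where 1.14% of all genes were higher and 0.708% lower, while 7 of the 40 and 2008 of all genes had an unadjusted p under 0.05 and DESeq2 called 2 of the 40. The medians were 0.14 over the 40 and -0.01 over all genes. In TBK1-cKD ∆control 9 were higher and none lower (4.48% and 4.41% of all genes), with medians of 0.17 and -0.03. Ctsf differed most, with 19.4, 21.4 and 19.4 CPM against 10.8, 12.3 and 13.8 CPM (difference 0.71, SE 0.11, adjusted p = 0.000379). Atp6v0a1 was higher by 0.26 (SE 0.05, adjusted p = 0.00278), with 223 to 229 CPM against 177 to 203 CPM. Ctsd, Ctsz, Gaa, Gla, Lipa, Cd63 and Atp6v1e1 were higher by 0.23 to 0.47. Without the library high in nuclear RNA, replicate 1 of TBK1-WT ∆control, 3 genes were called, and Ctsd, Ctsz, Gaa, Gla, Lipa, Cd63 and Atp6v1e1 lost their calls. Leaving out TBK1-cKD ∆control replicate 2 left 4 called, with those of Ctsz, Gla, Lipa, Cd63 and Atp6v1e1 lost. Gaa and Lipa were lost without TBK1-cKD ∆control replicate 1 or 3, and Gla without TBK1-WT ∆control replicate 3. The 2 groups fitted alone gave 0 calls among the 40 genes, and fewer calls over all genes as well. With nuclear RNA level as a term 14 were higher and 3 lower (6.57% and 5.95% of all genes). Osteoclast markers summed to 1430 to 1540 CPM in TBK1-cKD ∆control after R837 and to 878 to 947 CPM in TBK1-WT ∆control, and their part in these differences was not tested.

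The group labelled TBK1-cKD ∆IKKe differed from TBK1-WT ∆control after R837 in 13 lysosomal genes, 8 higher and 5 lower (16.7% and 15.5% of all genes), with medians of 0.05 and -0.01. Atp6v0a1 was far lower, with 90.6, 92.2 and 84.2 CPM against 177, 185 and 203 CPM, a difference of -1.08 (SE 0.05, adjusted p = 1.7e-12), or 2.12-fold. The groups did not overlap, the replicate high in nuclear RNA was close to its mates here, and the difference was -1.06 between the single high-level libraries of the 2 groups. Atp6v1b2, the ATP-binding partner of Atp6v1a, had 608, 607 and 449 CPM against 617, 844 and 843 CPM (difference -0.47, SE 0.1, adjusted p = 0.000965). Its highest library was still under the lowest of TBK1-WT ∆control. Lipa was lower by a log2 difference of -0.43, Npc1 of -0.39 and Gusb of -0.3. On the other side Npc2 had 2440, 2510 and 2060 CPM against 1210, 1630 and 1530 CPM (difference 0.68, SE 0.09, adjusted p = 3.96e-06). Atp6v1e1 was higher by 0.47, Gla by 0.37, Ctsf by 0.34, Ctsz and Lamp2 by 0.32 each and Ctsh and Gaa by 0.24 each. The libraries of the 2 groups overlapped for Gusb, Ctsf and Lamp2. The calls of Ctsf and Lamp2 were lost without labelled replicate 1 or 2 or TBK1-WT ∆control replicate 1, that of Ctsf also without TBK1-WT ∆control replicate 2, and that of Ctsh without TBK1-WT ∆control replicate 1. The 2 groups fitted alone called 4 of the 13, and fewer of all genes as well. Upper-quartile scaling gave 5 higher and 5 lower, with 1983 of all genes higher and 2900 lower in place of 2447 and 2278. Neutrophil markers, 6 of 9 tested, summed to 123 to 216 CPM in the labelled group after R837 and to 21.4 to 24.1 CPM in TBK1-WT ∆control, with Ly6g, Elane and Retnlg at 0 in both groups, and osteoclast markers to 1680 to 2150 CPM and 878 to 947 CPM; their part in these differences was not tested.

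The size of the R837 response was compared between genotypes by testing the difference of 2 responses, and all 3 tests share the libraries of TBK1-WT ∆control. For TBK1-WT ∆IKKe no lysosomal gene passed by edgeR, with 0.129% of all genes higher and 0.116% lower, 2 of the 40 and 1008 of all genes at an unadjusted p under 0.05, and none of the 40 called by DESeq2. The medians were 0.08 and -0.03. For TBK1-cKD ∆control 1 gene passed (0.674% of all genes higher, 0.204% lower; medians 0.08 and -0.03). It was Ctsc, whose response was larger by 0.82 (SE 0.18, adjusted p = 0.0339). Its untreated level was the lower one of the 2 genotypes, and its treated libraries stood at 1990, 2010 and 1960 CPM against 1600, 2360 and 2400 CPM. This call was lost in 9 of the 12 fits that left out 1 library, with differences of 0.65 to 0.92; it was kept without TBK1-WT ∆control R837 replicate 2 or 3 or TBK1-cKD ∆control untreated replicate 1.

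For the group labelled TBK1-cKD ∆IKKe, 6 lysosomal genes had a lower response, meaning a deeper fall or, for Ctsz, a smaller rise, and none a higher one (9.96% and 7.38% of all genes). The medians were -0.11 over the 40 and -0.04 over all genes. Atp6v0a1 fell by 2.34 (SE 0.06) in this group and by 1.35 in TBK1-WT ∆control, a difference of -0.99 (SE 0.07, adjusted p = 4.37e-09). From 445, 446 and 460 CPM untreated it went to 90.6, 92.2 and 84.2 CPM, which is 5.06-fold lower, the deepest fall of the 40 genes in any genotype. Lipa fell by 1.88 against 1.28 (difference -0.6, SE 0.11, adjusted p = 0.000439), from 2070, 2100 and 2100 CPM to 625, 598 and 481 CPM. Atp6v1b2 fell by 0.72 where its change in TBK1-WT ∆control was -0.08, a difference of -0.64 (SE 0.14, adjusted p = 0.00273). Its untreated libraries had 908, 913 and 915 CPM. Npc1 differed by -0.32, Gusb by -0.33 and Ctsz by -0.26, with adjusted p of 0.0127, 0.0437 and 0.0487. Taking the nuclear RNA level into the fit, the differences of Atp6v0a1, Lipa and Atp6v1b2 were -0.99, -0.61 and -0.64, and between libraries of high level alone -0.97, -0.66 and -0.62. Without the 2 R837 libraries of high level they were -0.98, -0.57 and -0.63. These 3 and Npc1 kept their calls in all 12 fits that left out 1 library. Gusb lost its call in 9 and Ctsz in 10 of these fits, at adjusted p of up to 0.122 and 0.116. Gusb was called without TBK1-WT ∆control R837 replicate 1 or labelled R837 replicate 1 or 2, and Ctsz without TBK1-WT ∆control R837 replicate 1 or labelled R837 replicate 2.

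A further 103 genes of lysosomal function, listed by role beside the 40, gave the surroundings of these changes, and 90 were tested. In TBK1-WT ∆control 25 of the 90 rose and 39 fell with R837 (median -0.14), beside 30.6% and 32% of all genes. Fitted together with the nuclear RNA level, 21 rose and 53 fell (median -0.35), beside 29.8% and 30.1%. Of 30 other genes listed under acid hydrolases, a list that also holds some genes that are not hydrolases, 5 rose and 17 fell. Sgsh, a sulfatase of heparan sulfate breakdown, fell by 3.08 (SE 0.08) from 99.5 to 107 CPM to 11.8 to 12.6 CPM, while the acid phosphatase Acp2 rose by 1.59. Among 7 other V-ATPase subunits tested, 3 rose and 1 fell. The one that fell was Atp6v0d2, the d subunit of osteoclasts and macrophages, by 2.78 (SE 0.09, adjusted p = 6.96e-17), from 486, 468 and 439 CPM to 64.7, 69.6 and 68.8 CPM. Its counterpart among the 40, Atp6v0d1, rose over the same 6 libraries. The alternative large subunit Atp6v0a2 rose by 0.9 (SE 0.06), where Atp6v0a1 fell. Of 9 MiT/TFE factors and partners 3 rose and 5 fell, with Rragd, a GTPase that recruits mTORC1 and these factors to lysosomes, falling by 2.81 and the factors Tfec and Tfe3 rising by 1.45 and 0.76. Among 23 other membrane proteins 9 rose and 12 fell. The peptide and histidine carrier Slc15a3 rose by 2.67 and the divalent metal transporter Slc11a1 by 2.1. Of 9 genes of mannose 6-phosphate sorting 2 rose and 2 fell, with changes of 1.33 for the receptor M6pr and -1.17 for the sorting receptor Sort1. The 3 other cathepsins tested gave 1 fall, that of the aspartic protease Ctse with a change of -1.47, the 4 inhibitors 1 rise and 1 fall, and the 5 genes of the lysosomal mTORC1 platform 2 rises. In the fit with the nuclear RNA level Sgsh, Atp6v0d2, Rragd, Slc15a3 and Acp2 had changes of -3.09, -2.94, -2.7, 2.54 and 1.63. In untreated cells labelled TBK1-cKD ∆IKKe 18 of the 90 were higher and 3 lower than in TBK1-WT ∆control (8.52% and 5.1% of all genes). They included Ctsk, the collagen-degrading cathepsin of osteoclasts, at 1.03 (SE 0.12, adjusted p = 1.52e-06), Slc11a1 at 0.97, Acp2 at 0.93 and the chloride exchanger Clcn7 at 0.77. Ctsk and Atp6v0d2 are also on the osteoclast marker list, whose level moved with this group.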

How the data were processed

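The 40 genes, their roles and the further lists were chosen with earlier results of these data known. Genes named from the further lists are up to 3 per list with the largest change among those called whose libraries did not overlap. The deposited counts are whole reads per Ensembl gene, aligned by the authors with GSNAP to GRCm38, as the submitters' processing notes have it; of the counting program and the annotation release nothing is given in the sources used here. RPKM, the other unit the authors deposited, relates reads to gene length and library total, and served for levels between genes. Per the labels, libraries were TruSeq RNA v2 (unstranded, so overlapping antisense genes cannot be separated), read as single 50 bp ends. Of 52636 identifiers 233 had no symbol (0.019% of counts).

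Counts of all 24 libraries were fitted in edgeR 4.0.16 (R 4.3.3) with 1 mean per group, TMM scaling and filterByExpr (minimum count 10, minimum total count 15), and tested by the quasi-likelihood F test with Benjamini-Hochberg adjustment over 14681 genes, at 0.05. The SE is the log2 change over the square root of F. The common biological coefficient of variation was 0.116, on 16 residual degrees of freedom. There were 13 comparisons. Log2 CPM has an offset of 0.5. Scripts were tested on simulated data. Alternatives were RLE and upper-quartile scaling, no filter, DESeq2 1.42.0, only the groups compared, the nuclear RNA level (split at a mean log2 CPM of 7.29) as a term, only the 14 libraries of high level, each library left out, and, added after the data were seen, no R837 library of high level. Where a fit left a group with 1 library, that library is assumed to vary like the other groups. The labels give no replicate numbers; those used follow the order of the records. Gene coordinates were taken from GENCODE M21, and promoter windows from RefSeq (GRCm38.p6).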

Additional observations from a re-analysis of the deposited data

Results flagged for a closer look

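The R837 response of 7 lysosomal genes differed between genotypes by a test of the difference itself. Against TBK1-WT ∆control, the log2 response of Ctsc in TBK1-cKD ∆control was larger by 0.82. In the group labelled TBK1-cKD ∆IKKe the response was lower, with differences of -0.99 for Atp6v0a1, -0.64 for Atp6v1b2, -0.6 for Lipa, -0.33 for Gusb, -0.32 for Npc1 and -0.26 for Ctsz. Adjusted p of edgeR's quasi-likelihood test was 0.0339 for Ctsc, 4.37e-09 for Atp6v0a1, 0.00273 for Atp6v1b2, 0.000439 for Lipa, 0.0437 for Gusb, 0.0127 for Npc1 and 0.0487 for Ctsz. The calls of Ctsc, Gusb and Ctsz were lost in most fits that left out 1 library (9, 9 and 10 of 12).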

How the results depend on the processing

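No paired analysis was possible because the labels give no replicate numbers. RLE scaling kept every count of calls within 1.5 times its value. Of the 40 changes with R837 in TBK1-WT ∆control and the calls of single lysosomal genes in the other comparisons (where genes not called were not followed), 907 values kept direction and side of the threshold over the fits that left out 1 library, while 104 lost the call, 9 gained it and 6 reversed. In genes called, TBK1-WT ∆IKKe against TBK1-WT ∆control untreated (0) gave 4 without a count filter, 1 with DESeq2, 3 with only the groups compared, 3 with nuclear RNA level as a term, 10 in libraries of high level alone and 3 without the 2 high R837 libraries (the fit added after the data were seen). In that order of the last 4 fits, untreated TBK1-cKD ∆control (742) gave 2808, 2042, 2996 and 1914, and the labelled TBK1-cKD ∆IKKe group (2000) gave 5391, 3752, 4910 and 3607. After R837, TBK1-WT ∆IKKe (272) gave 492 with DESeq2, 19 with only the groups compared and 519 with the term, while only the groups compared gave 40 for TBK1-cKD ∆control (1305) and 2610 for the labelled group (4725). For differences of response, DESeq2, only the groups compared, the term and the fit without the high R837 libraries gave 123, 23, 146 and 115 in TBK1-WT ∆IKKe (36) and 261, 29, 442 and 382 in TBK1-cKD ∆control (129), and the term gave 4420 in the labelled group (2546). Lysosomal genes called in untreated TBK1-cKD ∆control (5) were 8 with DESeq2 and, in the order above, 22, 23, 25 and 22. In the untreated labelled group (8) they were 5 with upper-quartile scaling and then 24, 22, 23 and 22. After R837 TBK1-WT ∆IKKe (0) gave 1 without a filter, 2 with DESeq2 and 4 both with the term and without the high R837 libraries. TBK1-cKD ∆control (9) gave 0 with only the groups compared, 17 with the term and 14 without those libraries, and the labelled group (13) gave 4, 22 and 21. Differences of response in TBK1-WT ∆IKKe (0) gave 1 with the term and 1 without those libraries. TBK1-cKD ∆control (1) gave 0 with upper-quartile scaling, 0 with only the groups compared and 2 with the term. The labelled group (6) gave 3 with only the groups compared, 16 with the term, 10 in libraries of high level and 13 without the high R837 libraries.

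Leaving out 1 library gave, untreated, 0 to 5 genes in TBK1-WT ∆IKKe, 392 to 714 genes and 3 to 5 lysosomal genes in TBK1-cKD ∆control, and 5 to 7 lysosomal genes in the labelled group. After R837 it gave 125 to 356 genes and 0 to 1 lysosomal genes in TBK1-WT ∆IKKe, and 774 to 1729 genes and 3 to 13 lysosomal genes in TBK1-cKD ∆control. For differences of response it gave 17 to 37 genes in TBK1-WT ∆IKKe, and 47 to 142 genes and 0 to 1 lysosomal genes in TBK1-cKD ∆control. Changes with R837 in TBK1-WT ∆control spanned, as 1 library was left out, -0.11 to 0.1 for Ctsa, -0.22 to 0.01 for Ctso, -0.15 to 0.11 for Glb1, -0.12 to 0.09 for Lamp1, -0.09 to 0.2 for Lamp2 and -0.15 to 0.11 for Atp6v1b2; the highest values, opposite to the main ones, were those without replicate 1 and were the same without both high R837 libraries. Cd63 reversed to -0.21 with the term and -0.19 in libraries of high level. With the term, which for TBK1-cKD ∆control comes from libraries of other groups, Cd63 was -0.16 and Atp6v1f -0.07 in that genotype. Lamp2 was -0.02 with the term in the labelled group, where Atp6v1f was -0.01 in libraries of high level. The cause of these shifts was not tested. With upper-quartile scaling 3827 genes rose and 5432 fell in TBK1-WT ∆control, in place of 4489 and 4700, with 11 and 19 lysosomal genes. Precision is limited by 3 libraries a group and, for Atp6v0c, by 11 to 34 counts.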
